A study of Mus musculus with 14 samples.

Results

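The genes described here were the complement and coagulation proteins that the liver secretes: 43 genes of complement, its lectin pathway, blood clotting and clot removal. They were chosen by name and not by a rule on the measured values, though with earlier results of these data known. All 43 were present in the table of 55487 genes, 1 row each, and all 43 were among the 12653 genes with enough reads to be tested. The list was divided by role into classical and terminal complement (11 genes), lectin pathway (4), complement inhibitors (5), fibrinogen chains (3), vitamin K-dependent proteins (7), other clotting factors (7), and proteins of clot removal with the antiproteases (6).

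Liver RNA was sequenced from 14 male TALLYHO mice, an inbred strain with polygenic obesity and type 2 diabetes in which males develop glucose intolerance and insulin resistance, aged 8 to 12 weeks in the study. The vehicle group (*n*=7) received water by oral gavage, and the indole group (*n*=7) received 20 mg/kg indole, a bacterial breakdown product of tryptophan, given the same way. Both groups were dosed 2 times a day for 7 days, underwent a pair of metabolic tests with 2 further doses between them, and gave their right liver lobe the day after the second test. Mice are named by their libraries: G1, G4, G6, G9, G10, G11 and G13 received vehicle, and G2, G3, G5, G7, G8, G12 and G14 received indole. The comparison asks whether repeated oral indole altered liver transcripts in diabetic mice.

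Complement is a chain of plasma proteases and binding proteins that marks microbes and damaged cells, recruits white cells and can build a pore in a membrane. The classical and lectin pathways both cleave C4 and C2, all pathways meet at C3, and C5 to C9 form the membrane attack complex. Clotting is a parallel chain of proteases that ends in thrombin, which turns fibrinogen into fibrin, while plasmin dissolves the clot and serpins restrain the proteases. Hepatocytes make most of these proteins in plasma. Several of them, fibrinogen and C3 among them, are acute-phase proteins, whose output rises in inflammation.

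Of the libraries, 4 stood apart from the rest. G1 and G4 (vehicle) and G2 and G3 (indole) had TMM factors, the scaling factors that correct for RNA composition, of 1.073 to 1.083, against 0.931 to 1.004 in the other 10. Total counts were 15197498 to 21060376 reads per mouse. In these 4 libraries 38 of the 43 genes had a lower mean than in the other 10, or 88.4% of them against 47.0% of all genes tested. The median difference was −0.21 on the log2 scale for the 43 genes and 0.02 for all genes tested. *Alb*, which encodes albumin, was at 47405.5 to 57159.7 CPM (reads scaled to a common library size after TMM correction) in the 4 libraries and at 63544.4 to 78246.7 in the others. The 4 were picked by their TMM factors, by which CPM is divided, so these lower levels are not independent of the pick. Genes of like level were not compared. The 4 libraries hold 2 mice of each group, the labels name no batch, and the part of these libraries in any result was not tested beyond the values given below.

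Another 3 mice stood apart in immune or acute-phase transcripts. *Saa1*, which encodes the acute-phase protein serum amyloid A, was at 2050.2 CPM in G11 and 479.9 CPM in G13, both vehicle, and at 15.9 to 108.7 CPM in the other 12 mice. The summed level of 12 interferon gamma response genes was 3858 CPM in G8 (indole), 1463 to 1950 CPM in the other indole mice and up to 2199 CPM, in G11, with vehicle. The sum of 12 Kupffer cell and macrophage markers was 548 CPM in G8 and at most 249 CPM in the other indole mice, and reached 298 CPM, in G11, with vehicle. Defining hepatocyte markers were abundant in every mouse, with a sum over 8 genes of 85023 to 118723 CPM. Platelet and megakaryocyte markers summed to 2.09 to 4.45 CPM over 6 genes, and T and NK cell markers to 0.0667 to 2.83 CPM. Of 6 erythroid markers, 5 were tested and all 5 had a higher mean with indole and an unadjusted *p* below 0.05, with a median log2 fold change of 1.07. Their sum was 204 to 384 CPM with vehicle and 263 to 1094 CPM with indole, and its part in the values below was not tested. In bulk tissue, fewer cells of a type and less RNA per cell cannot be told apart.

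The 43 genes took 4.44±0.30% of all counted reads in vehicle-treated livers and 4.15±0.21% in indole-treated livers (mean±SD, *n*=7 each). Levels between genes were compared as CPM per kb of gene length. The order in the vehicle group was led by *C3*, the protein on which all complement pathways converge, at 2016±198 CPM per kb. Next came the fibrinogen gamma chain gene *Fgg* at 1238±243 and *Vtn*, encoding vitronectin, at 1237±175. They lay within 1 SD of each other, as did *Fga* at 986±209 and *Fgb* at 837±128. *Kng1* followed at 758±59.5, *Plg*, encoding plasminogen, at 639±56.2, and *Hrg* at 619±42.5 CPM per kb.

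At the other end, *Cfb*, which encodes factor B of the alternative pathway, had the lowest level at 2.06±0.41 CPM per kb. It was preceded by *C1ra* at 8.80±1.44, *Pros1*, encoding protein S, at 9.28±0.63, *Masp1* at 10.4±0.59 and *C2* at 11.4±1.07 CPM per kb. *Hc*, the mouse gene of C5, was at 13±2.77 CPM per kb, about the level of *C2*, and *C9* was at 142±23.6. Of neighbours in the order, the gap exceeded the larger SD after *C3*, *Vtn*, *Kng1*, *Hrg* and *F2*, among others, but not between *C8g*, *F12*, *Serpinc1*, *Cfi*, *F10*, *Cpb2* and *Proc*, which ran from 278 to 195 CPM per kb. *Cfb* shares 79.5% of its exon bases, and *C2* 42.8%, with a same-strand read-through model that has 0 reads in all mice, and *Klkb1* shares 43.2% with another that has 2 reads. How reads on 2 overlapping genes were counted is not given in the sources used here, so these levels are uncertain. *C4b* and *C1ra* have close copies, *C4a* and *C1rb*, to which reads may have been lost.

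**Figure D1:**
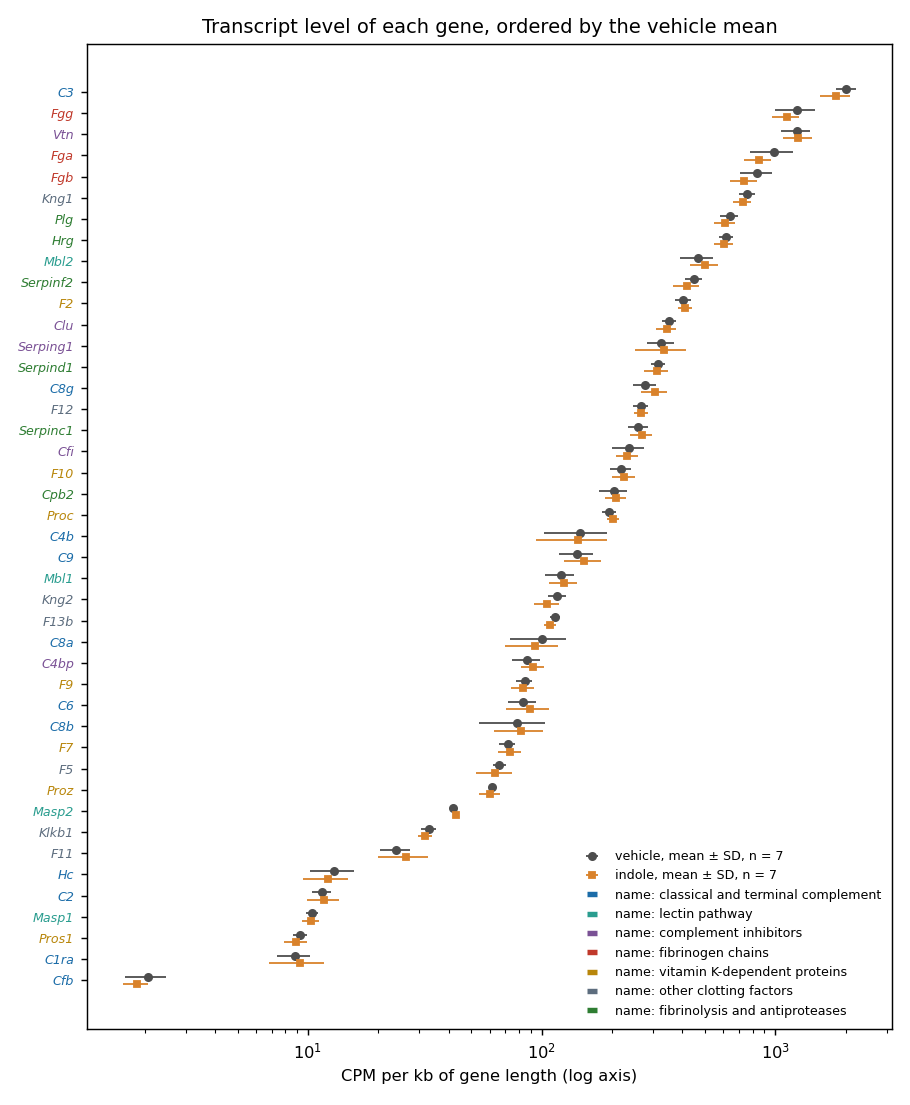
Level of each of the 43 genes as CPM per kb of gene length on a log axis, mean and SD of 7 vehicle mice (circles) and 7 indole mice (squares), ordered by the vehicle mean and with names coloured by role. *C3* at 2016 CPM per kb and *Cfb* at 2.06 are the ends of the order, and the group means lie close together for every gene.

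None of the 43 genes passed the test for a difference between indole and vehicle. With edgeR's quasi-likelihood test, 0 of 43 had an unadjusted *p* below 0.05, against 3.81% of all genes tested (2.28% lower and 1.53% higher in indole). None had an adjusted *p* below 0.05, as was true of 0% of all genes, and the adjusted *p* was 0.998 for each of the 43. The smallest unadjusted *p* was 0.0774, for *Fga*. DESeq2 and limma voom likewise gave 0 of 43 at an unadjusted *p* below 0.05, against 719 of 22535 and 564 of 12653 of all genes. An exact two-sided permutation test over all relabellings of the mice gave 0 of 43 below 0.05 and a smallest *p* of 0.0938, for *Kng2* (*n*=7 each). The share of all genes below 0.05 in this exact test was not counted, so its count is a description only. The values of the groups overlapped for all 43 genes, and groups that did not overlap were found for 0.0474% of all genes tested.

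The estimates were small and ran in both directions. Indole-treated mice had a higher mean than vehicle for 20 genes and a lower one for 23, or 53.5% lower against 48.7% of all genes tested. The log2 fold changes ran from −0.22 to 0.14, with a median of −0.02 against 0.00 for all genes. All 43 of the 95% confidence intervals lay within 0.5 of 0 on the log2 scale, a change of at most 41.4% up or 29.3% down, and 22 of them lay within 0.25, or 18.9% up and 15.9% down. The median standard error was 0.089 for the 43 genes and 0.126 for all genes tested. The biological coefficient of variation, edgeR's measure of the spread between mice, had a median of 0.142 for the 43 genes. It was 0.166 for all genes tested and 0.134 for those with a vehicle mean of at least 10 CPM.

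**Figure D2:**
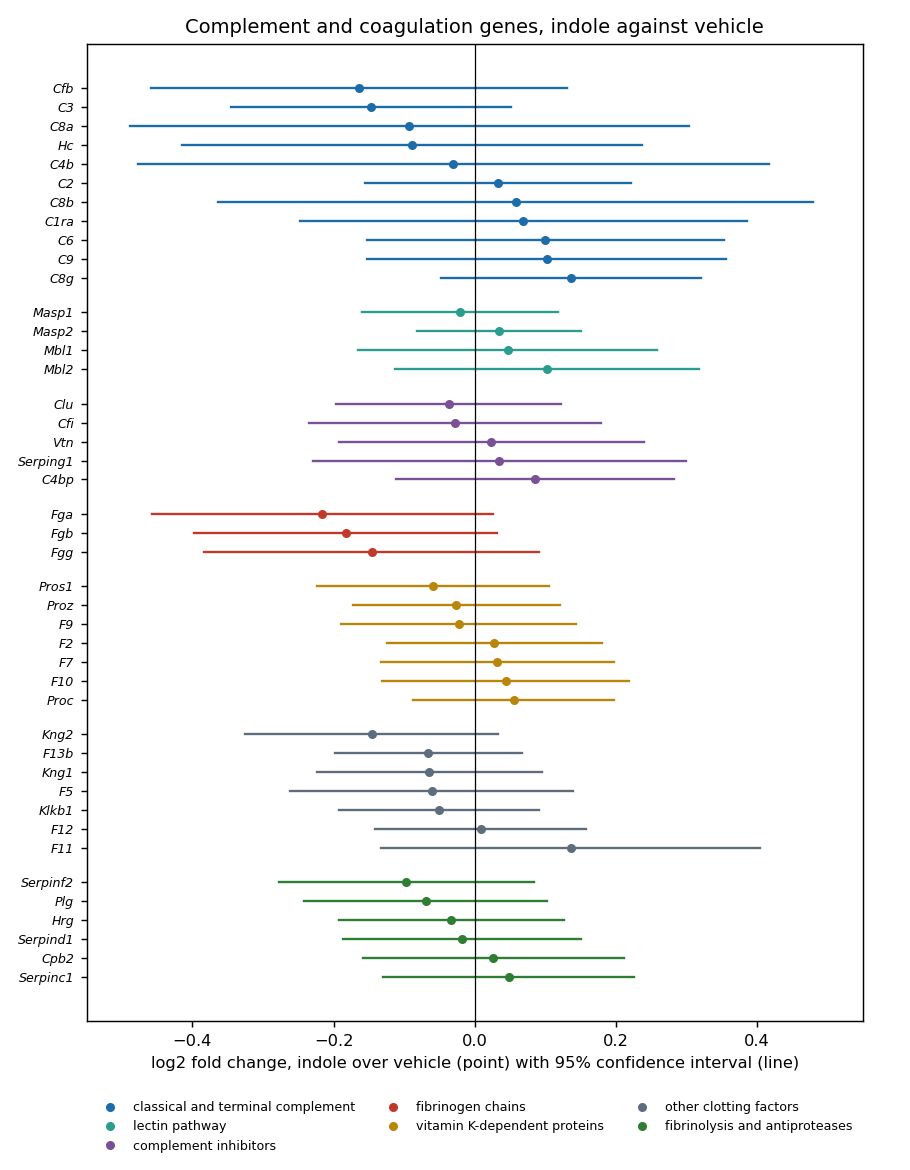
log2 fold change of indole over vehicle for each of the 43 genes (points) with its 95% confidence interval (lines), in blocks coloured by role. All 43 intervals include 0 and lie between −0.49 and 0.48, and the 3 fibrinogen chains are the block in which every point is below 0.

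*Fga* and *Fgb* had the largest estimates of the 43 genes, and all 3 fibrinogen chains had a lower mean with indole. Fibrinogen is a plasma protein of paired alpha, beta and gamma chains, which thrombin converts to the fibrin of a clot, and its genes *Fga*, *Fgb* and *Fgg* lie side by side. On GRCm38 they are at chr3:83026076-83033627 (plus strand), chr3:83040141-83049863 (minus strand) and chr3:83007724-83015049 (plus strand), with gaps of 11.03 kb from *Fgg* to *Fga* and 6.51 kb from *Fga* to *Fgb*. The stretches before their starts are shown because the transcripts of these genes moved together across mice, as described below. The sequences are from RefSeq (GRCm38.p6), printed 5′ to 3′ on the gene's strand up to the earlier of the RefSeq start and the gene start of the deposited table. They cover chr3:83025903-83026075 (plus strand) for *Fga*, chr3:83049864-83050113 (minus strand) for *Fgb* and chr3:83007474-83007723 (plus strand) for *Fgg*. Capitals mark matches to the HNF1 core motif GTTAAT or to the STAT motif TTCNNNGAA on either strand.

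Fga: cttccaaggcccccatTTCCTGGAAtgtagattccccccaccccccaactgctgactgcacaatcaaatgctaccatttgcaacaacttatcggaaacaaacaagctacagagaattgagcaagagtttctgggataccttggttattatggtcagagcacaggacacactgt
Fgb: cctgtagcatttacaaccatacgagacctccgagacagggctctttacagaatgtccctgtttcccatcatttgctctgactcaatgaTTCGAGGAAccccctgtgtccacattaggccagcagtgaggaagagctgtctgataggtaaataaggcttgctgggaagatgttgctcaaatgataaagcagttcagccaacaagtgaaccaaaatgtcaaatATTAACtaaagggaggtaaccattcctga
Fgg: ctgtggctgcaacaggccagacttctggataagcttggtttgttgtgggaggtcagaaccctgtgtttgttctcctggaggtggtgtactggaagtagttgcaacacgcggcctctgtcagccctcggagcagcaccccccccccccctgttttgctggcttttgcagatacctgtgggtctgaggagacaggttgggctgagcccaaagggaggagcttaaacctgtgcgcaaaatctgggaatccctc

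HNF1 is a factor of hepatocytes, and STAT factors carry the signal of interleukin-6 to acute-phase genes. *Fgb* had an HNF1 core motif 29 bases and a STAT match 162 bases before its start. *Fga* had a STAT match 234 bases before its RefSeq start, and an HNF1 core motif 43 bases before it that lies beyond the gene start of the deposited table and is not printed. *Fgg* had neither. Windows of 300 bases, from 250 before to 50 after the start, were given for 33 of the 43 genes. An HNF1 core motif was found in 11 of these 33 (33.3%) against 7.10% of 32851 windows of all genes, and a STAT match in 8 (24.2%) against 8.30%. A match to the C/EBP motif TTNCGNAA was found in 2 (6.06%, against 2.47%) and to the TATA box TATAAA in 5 (15.2%, against 13.6%), and none of the 33 held the HNF4 motif CAAAGTCCA, which 0.475% of all windows held. These are counts of letters and say nothing of binding.

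In vehicle mice, *Fga* ranged from 2456 CPM in G1 through a median of 2758 to 4237 in G13, and in indole mice from 2171 in G3 through 2583 to 3018 in G8. Of the indole mice, 3 were below every vehicle mouse and 2 were above the vehicle median. The mean was 2967±628 CPM with vehicle and 2554±342 with indole (*n*=7 each), a log2 fold change of −0.22 (SE 0.116, 95% confidence interval −0.46 to 0.03, exact permutation *p*=0.134). When each mouse was left out, the estimate ran from −0.26, without G8, to −0.11, without G13, the mouse with the highest value. Without G8, G11 and G13 together it was −0.10.

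*Fgb* ranged from 2552 CPM in G1 through 3129 to 4076 in G13 with vehicle, and from 2290 in G3 through 2721 to 3325 in G8 with indole. *Fgg* ranged from 2020 CPM in G1 through 2440 to 3499 in G13 with vehicle, and from 1944 in G3 through 2316 to 2698 in G7 with indole. The groups overlapped for both chains. The log2 fold change was −0.18 (SE 0.103, exact permutation *p*=0.126) for *Fgb* and −0.15 (SE 0.114, exact permutation *p*=0.315) for *Fgg*. Without G13 these were −0.11 and −0.06, and without G8, G11 and G13 together they were −0.14 and −0.06. Without G1 they were −0.23 and −0.20, the farthest from 0 when each mouse was left out. Within the 4 libraries with high TMM factors, the log2 ratio of the indole mean to the vehicle mean was −0.05 for *Fga*, −0.04 for *Fgb* and 0.10 for *Fgg*, with 2 mice a group and no test. Within the other 10 it was −0.27, −0.23 and −0.23 (exact permutation *p*=0.119, 0.0794 and 0.127, *n*=5 each).

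G13 had the highest level of each fibrinogen chain among the 14 mice. It was at 1.55 times the geometric mean of the other vehicle mice for *Fga*, 1.35 times for *Fgb* and 1.45 times for *Fgg*. Its *Saa1* level of 479.9 CPM was below the 2050.2 CPM of G11, whose *Fga* was 3270 CPM. Of 19 inducible acute-phase genes other than the 43, 18 had a lower and 1 a higher mean with indole. Of the 19, 3 had an unadjusted *p* below 0.05, and the median log2 fold change was −0.24. Over all genes tested, 48.7% had a lower mean and 3.81% an unadjusted *p* below 0.05. The summed level of the 19 genes was 9516 to 23552 CPM with vehicle, highest in G11, and 8362 to 17732 CPM with indole, highest in G8. Its median was 10923 CPM with vehicle and 11024 CPM with indole. The highest sum was 11775.5 CPM in vehicle mice other than G11 and G13, and 12222.8 CPM in indole mice other than G8. The part of these genes in the fibrinogen values was not tested.

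**Figure D3:**
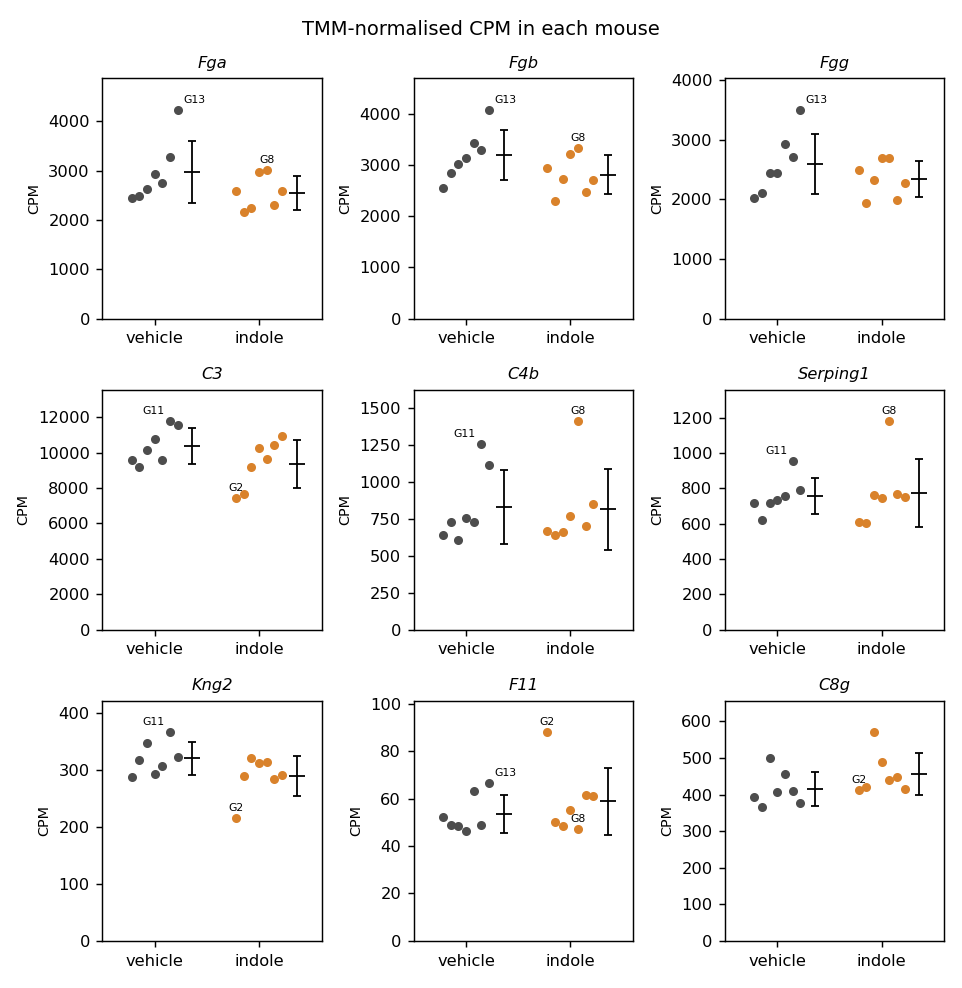
TMM-normalised CPM in each of the 14 mice for 9 genes, on axes from 0, with vehicle in grey, indole in orange, names on G2, G8, G11 and G13 where highest or lowest of their group, and mean and SD at the right of each group. The groups overlap in every panel, G13 is highest for the 3 fibrinogen chains, G8 is highest for *C4b* and *Serping1*, and G2 is highest for *F11* and lowest for *Kng2*.

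Among the 11 classical and terminal complement genes, 6 had a higher and 5 a lower mean with indole, with a median log2 fold change of 0.03. *C3* (chr17:57203970-57228136) accounted for 1.04±0.09% of all reads with vehicle and 0.92±0.10% with indole. It ranged from 9198 CPM in G4 through 10137 to 11783 in G11 with vehicle, and from 7415 in G2 through 9629 to 10957 in G14 with indole. The indole mice G2, G3 and G5 lay below every vehicle mouse and none lay above all of them. The means were 10367±1018 and 9358±1366 CPM, a log2 fold change of −0.15 (SE 0.095, exact permutation *p*=0.149). When each mouse was left out, this estimate ran from −0.19, without G14, to −0.10, without G2. It was −0.08 without G8, G11 and G13 together. Within the 4 libraries with high TMM factors the vehicle values were 9198 and 9589 CPM and the indole values 7415 and 7670 CPM. In the other 10, vehicle ran from 9569 to 11783 and indole from 9181 to 10957 CPM, with an exact permutation *p* of 0.246 (*n*=5 each). With these 4 libraries as a covariate, *C3* had an unadjusted edgeR *p* of 0.0251 and a log2 fold change of −0.16. It was the only one of the 43 below 0.05 in that fit, against 631 of all 12653 genes tested.

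*C4b*, which encodes C4, the protein cleaved by the classical and lectin proteases, had the largest standard error of the 43 genes. It lay at 604 to 756 CPM in 5 vehicle mice and at 1113 in G13 and 1256 in G11, and at 642 to 850 CPM in 6 indole mice and at 1411 in G8. The high values thus came from 2 vehicle mice and 1 indole mouse, all 3 of them among the mice that stood apart above. The log2 fold change was −0.03 (SE 0.209). *C2*, encoding the protease that joins C4 in the C3 convertase, was 60.8 CPM in G8 and 37.2 to 49.6 CPM in the other 13 mice. *C1ra*, one of the genes of the C1r protease, was also highest in G8, at 37.0 CPM, with a low of 20.0 CPM in G3. *Cfb* was at 4.47 to 7.52 CPM with vehicle and 4.18 to 5.98 CPM with indole (log2 fold change −0.16, SE 0.141, exact permutation *p*=0.276). Its estimate ran from −0.22, without G1, to −0.09, without G9, when each mouse was left out.

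The genes of the membrane attack complex had no shared direction, and *C8a* and *C8b* varied most among them. *C8a* and *C8b*, which encode the alpha and beta chains of C8, had the highest ratios of highest to lowest mouse among the 43 genes, 2.49 and 2.35, followed by *C4b* at 2.34. In the other genes of the complex among the 43, this ratio ran from 1.56 for *C8g* to 1.89 for *Hc*. *C8a* ran from 261 CPM in G6 to 538 in G13 with vehicle and from 216 in G3 to 460 in G2 with indole. *C8b* ran from 130 CPM in G4 to 307 in G10 with vehicle and from 142 in G3 to 292 in G2 with indole. *C8g*, which encodes the small lipocalin chain of C8, had a narrower spread. It ran from 365 CPM in G4 through 406 to 500 in G6 with vehicle, and from 412 in G2 through 440 to 571 in G5 with indole. All 7 indole mice lay above the vehicle median, and 1 lay above all vehicle mice. The log2 fold change of *C8g* was 0.14 (SE 0.088, exact permutation *p*=0.149), the highest of the 43. It ran from 0.07, without G5, to 0.19, without G6, when each mouse was left out. The remaining pore proteins among the 43 genes, of which *C7* is not one, had log2 fold changes of −0.09 for *Hc*, 0.10 for *C6* and 0.10 for *C9*. Their SEs were 0.153, 0.121 and 0.122.

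The lectin pathway begins with mannose-binding lectins, which recognise microbial sugars, and their proteases. Its 4 genes had log2 fold changes of 0.05 for *Mbl1*, 0.10 for *Mbl2*, −0.02 for *Masp1* and 0.03 for *Masp2*. *Mbl2* (chr19:30232942-30239687) was the most abundant, ranging from 442 CPM in G13 through 479 to 669 in G6 with vehicle and from 452 in G2 through 535 to 644 in G8 with indole (SE 0.103, exact permutation *p*=0.361). Its estimate was 0.18 without G6, 0.06 without G8, and 0.00 without G8, G11 and G13 together. *Masp2*, the protease that cleaves C4 and C2, was the steadiest of the 43 genes. It lay between 132 and 147 CPM in all 14 mice, a ratio of 1.11, with coefficients of variation of 3.31% and 2.74%. Its exons overlap those of *Tardbp* on the opposite strand over 54.9% of their bases, and the libraries were made strand-specific.

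The complement inhibitors act on C3b and C4b, on C1, or on the forming pore. Their log2 fold changes were −0.03 for *Cfi*, encoding factor I, 0.09 for *C4bp*, 0.02 for *Vtn*, −0.04 for *Clu*, encoding clusterin, and 0.03 for *Serping1*, encoding the C1 inhibitor. *Vtn* ranged from 1896 CPM in G4 through 2681 to 2839 in G10 with vehicle, and from 2089 in G3 through 2580 to 3031 in G5 with indole (SE 0.104, exact permutation *p*=0.829). In *Serping1* G8 was alone at 1182 CPM, against 604 to 771 CPM in the other indole mice and 623 to 955 in the vehicle group, whose highest value was that of G11. *C4bp* was likewise highest in G8, at 730 CPM, and lowest in G1, at 479 CPM.

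The vitamin K-dependent proteins share a domain that binds calcium and phospholipid after carboxylation. Their 7 genes had log2 fold changes of 0.03 for *F2*, 0.03 for *F7*, −0.02 for *F9*, 0.04 for *F10*, 0.05 for *Proc*, −0.06 for *Pros1* and −0.03 for *Proz*. *F2*, which encodes prothrombin, ranged from 1654 CPM in G4 through 1873 to 2051 in G11 with vehicle and from 1721 in G2 through 1884 to 2078 in G5 with indole (SE 0.073, exact permutation *p*=0.625). Its estimate lay between 0.00, without G5, and 0.05, without G11, when each mouse was left out. Each of these 7 genes had a confidence interval within 0.25 of 0 on the log2 scale, and the ratio of highest to lowest mouse did not exceed 1.43. *Proz*, encoding the cofactor protein Z, had 3 indole mice above and 4 below every vehicle mouse. Its vehicle values were 330 to 355 CPM and its indole values 285 to 377 CPM.

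Of the other clotting factors, 5 had a lower and 2 a higher mean with indole. *F5*, the cofactor of factor X, had a log2 fold change of −0.06, *F13b*, the carrier chain of the enzyme that crosslinks fibrin, −0.07, and *F12* 0.01. *Klkb1*, encoding plasma prekallikrein, was at −0.05. The kininogens, which carry bradykinin, are encoded by neighbouring genes on chromosome 16. *Kng2* (chr16:22985854-23029482) ranged from 288 CPM in G1 through 318 to 366 in G11 with vehicle, and from 215 in G2 through 291 to 320 in G5 with indole. Its log2 fold change was −0.15 (SE 0.086, exact permutation *p*=0.0938). When each mouse was left out it ran from −0.17, without G5, to −0.08, without G2. *Kng1* (chr16:23057865-23082078) ranged from 2169 CPM in G1 through 2566 to 2666 in G11 with vehicle and from 1951 in G2 through 2413 to 2554 in G8 with indole. No indole mouse reached the vehicle median of *Kng1*, and 1 lay below every vehicle mouse. The log2 fold change of *Kng1* was −0.06 (SE 0.076, exact permutation *p*=0.353), or −0.02 without G2, −0.04 without G11 and −0.09 without G1. *F11*, encoding factor XI, was at 88.0 CPM in G2 and at 46.5 to 66.5 CPM in the other 13 mice (log2 fold change 0.14, SE 0.128).

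In the group of clot removal and antiproteases, *Plg* (chr17:12378608-12419385) ranged from 2080 CPM in G4 through 2492 to 2551 in G10 with vehicle and from 1820 in G3 through 2333 to 2518 in G8 with indole (log2 fold change −0.07, SE 0.082, exact permutation *p*=0.378). The estimate ran from −0.10, without G4, to −0.02, without G3, when each mouse was left out. *Serpinc1*, encoding antithrombin, had a log2 fold change of 0.05, *Serpind1*, encoding heparin cofactor II, −0.02, and *Serpinf2*, encoding the plasmin inhibitor, −0.10. *Cpb2*, whose enzyme trims fibrin so that plasmin binds less, was at 0.03 and *Hrg* at −0.03. The SEs of these 6 genes were 0.076 to 0.089.

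Some mice held the highest or the lowest value of many of the 43 genes. G3 (indole) had the lowest value of all 14 mice for 14 of the 43 genes, or 32.6%, against 6.88% of all genes tested. G4 (vehicle) and G2 (indole) had it for 9 each, or 20.9%, against 9.53% and 8.05% of all genes. G2, G3 and G4 are among the libraries picked by their high TMM factors. G11 (vehicle) had the highest value for 9 genes, or 20.9% against 5.66% of all genes, among them *C3*, *Cfi*, *Kng1*, *Kng2*, *Cpb2* and *Serpinf2*. G5 (indole) was highest for 10 genes, or 23.3%, against 13.9% of all genes. G8 was above every other indole mouse for 16 genes and G11 above every other vehicle mouse for 15. The matching shares of all genes were not counted, so these counts are descriptions only. G8 stood above the mean of the other indole mice for 32 of the 43 genes, or 74.4% against 49.2% of all genes, and G11 above that of the other vehicle mice for 30, or 69.8% against 50.7%. By role, both did so for 5 of 5 complement inhibitors, 3 of 3 fibrinogen chains and 6 of 6 genes of clot removal and antiproteases. The counts in G8 were 6 of 11 classical and terminal complement genes, 3 of 4 lectin pathway genes, 5 of 7 vitamin K-dependent proteins and 4 of 7 other clotting factors, and in G11 they were 7, 2, 3 and 4. G13 stood above the mean of the other vehicle mice for 32 of the 43 genes, against 52.3% of all genes. It did so for 3 of 3 fibrinogen chains, with a median log2 deviation of 0.53, but for 2 of 6 genes of clot removal and antiproteases. Counts near these were also found in other mice: 32 genes in G10, 29 in G7 and 28 each in G5 and G14. G9 and G12 had 24 each and G6 had 20. G2, G1, G4 and G3 had 15, 7, 6 and 5. Their low values lower the means against which the other mice of their groups were set. All these means are of log2 CPM.

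**Figure D4:**
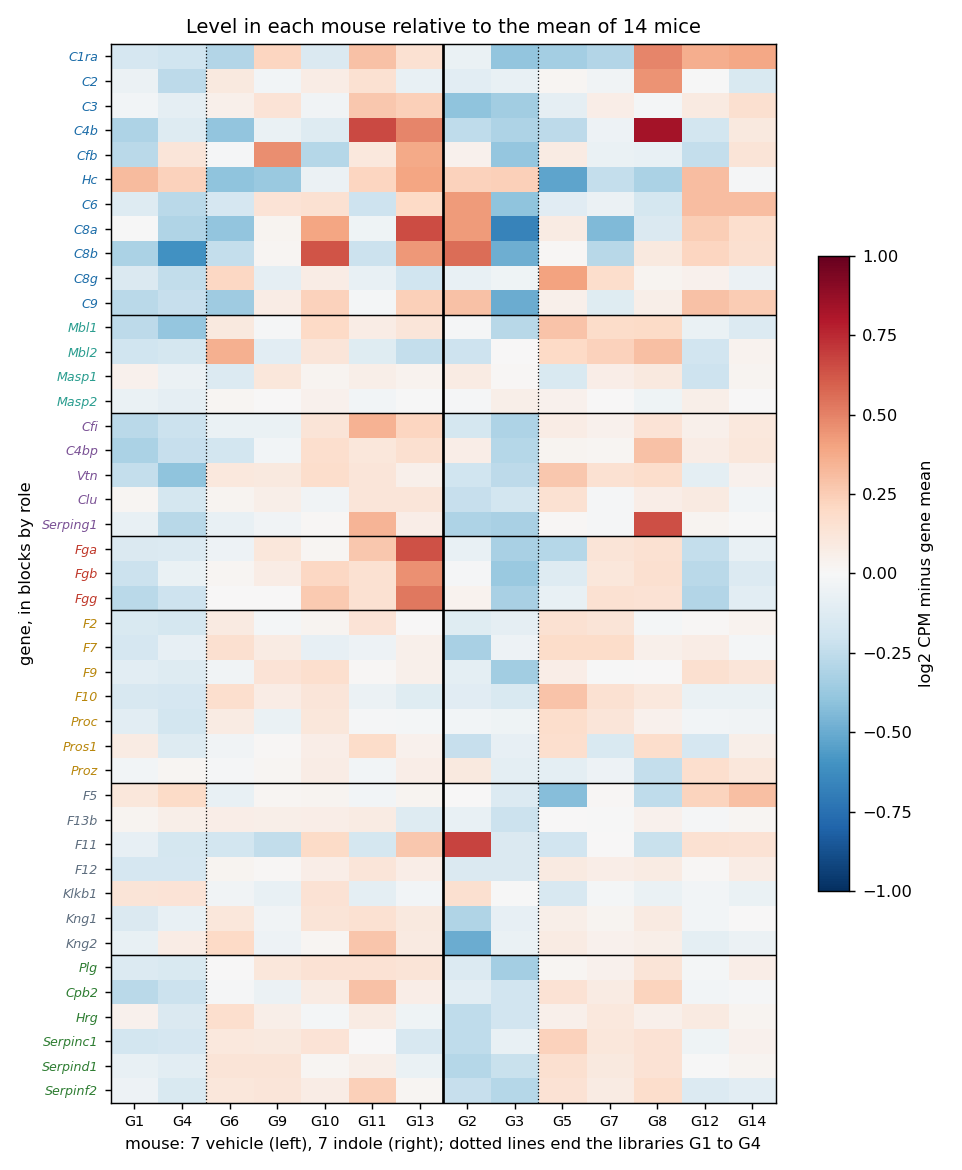
Each cell shows the log2 CPM of a gene in a mouse minus the gene's mean over 14 mice, with genes in blocks by role and mice by group, and with the libraries G1 to G4 first within each group. Most cells of G1, G4, G2 and G3 are below 0, G13 is high in the fibrinogen block and in *C8a*, and G8 is high in *C4b* and *Serping1*.

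Over the 14 mice, 6 pairs of chains of 1 complex and 2 pairs of close copies were set against each other, 8 pairs in all. The fibrinogen chains followed each other closely, with Pearson's *r* of log2 CPM of 0.97 (Spearman's rho 0.96) for *Fgb* and *Fgg*, 0.92 (0.90) for *Fga* and *Fgb*, and 0.88 (0.86) for *Fga* and *Fgg*. The permutation *p* of *r* was 1e-05, 1e-05 and 2e-05 in that order, where 1e-05 is the smallest that the resamples can give, and the Benjamini–Hochberg values over 8 pairs were 4e-05, 4e-05 and 5.3e-05. Without the 2 mice farthest from the median, *r* was 0.95, 0.88 and 0.79. It was 0.98, 0.90 and 0.88 within the vehicle group and 0.98, 0.92 and 0.88 within the indole group. In the 10 libraries without high TMM factors, *r* was 0.98, 0.91 and 0.87.

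The chains of C8 did not all behave in this way. *C8a* and *C8b* correlated at *r*=0.87 (rho 0.86, permutation *p*=0.00011, adjusted *p*=0.00019), at 0.85 without the 2 mice farthest from the median, and at 0.86 and 0.95 within vehicle and indole. *C8g*, whose protein is bound to the alpha chain, showed *r*=−0.18 with *C8a* (rho −0.18, permutation *p*=0.53) and 0.07 with *C8b* (rho 0.13, permutation *p*=0.81). Without the 2 farthest mice these were −0.09 and −0.23. In the 10 libraries without high TMM factors, *r* was 0.88 for *C8a* and *C8b*, −0.48 for *C8a* and *C8g* and −0.34 for *C8b* and *C8g*. *C8a* and *C8b* are neighbours on chromosome 4, 11.1 kb apart with their ends facing, and *C8g* is on chromosome 2. The stretches before their starts, chr4:104876399-104876648 (minus strand), chr4:104766067-104766316 (plus strand) and chr2:25501720-25501969 (minus strand), are shown because the first pair followed each other and *C8g* did not, with source, build and capitals as for fibrinogen.

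C8a: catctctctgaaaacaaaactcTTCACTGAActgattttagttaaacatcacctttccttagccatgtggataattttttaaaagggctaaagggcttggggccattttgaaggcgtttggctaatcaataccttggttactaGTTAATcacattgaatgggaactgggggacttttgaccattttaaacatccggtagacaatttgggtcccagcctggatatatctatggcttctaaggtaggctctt
C8b: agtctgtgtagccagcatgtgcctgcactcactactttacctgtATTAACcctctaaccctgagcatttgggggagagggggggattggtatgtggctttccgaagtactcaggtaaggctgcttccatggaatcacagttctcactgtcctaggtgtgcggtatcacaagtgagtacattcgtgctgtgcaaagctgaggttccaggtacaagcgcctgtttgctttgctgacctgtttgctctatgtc
C8g: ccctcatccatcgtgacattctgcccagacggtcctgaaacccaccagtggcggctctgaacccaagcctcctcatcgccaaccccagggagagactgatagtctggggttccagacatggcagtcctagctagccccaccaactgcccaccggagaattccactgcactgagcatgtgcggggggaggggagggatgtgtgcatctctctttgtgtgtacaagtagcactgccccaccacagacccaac

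*C8a* held an HNF1 core motif 107 bases and a STAT match 228 bases before its start, *C8b* an HNF1 core motif 206 bases before its start, and *C8g* held neither.

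Close copies gave a mixed picture. *Kng1* and *Kng2*, 28.4 kb apart, correlated at *r*=0.87 (rho 0.78, permutation *p*=0.00012, adjusted *p*=0.00019), but at 0.71 without G2 and G1, and at 0.72 within vehicle and 0.97 within indole, and at 0.82 in the 10 libraries without high TMM factors. *Mbl1* and *Mbl2*, on chromosomes 14 and 19, correlated at 0.56 (rho 0.51, permutation *p*=0.039), which did not pass after adjustment (0.053). Nearness alone went with a range of values, given as descriptions: over the 14 mice *r* was 0.69 for *F7* and *F10*, 1.5 kb apart, −0.36 for *F10* and *Proz*, 4.24 kb apart, 0.50 for *F11* and *Klkb1*, 4.66 kb apart, and −0.17 for *Cfb* and *C2*, 85 bases apart.

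**Figure D5:**
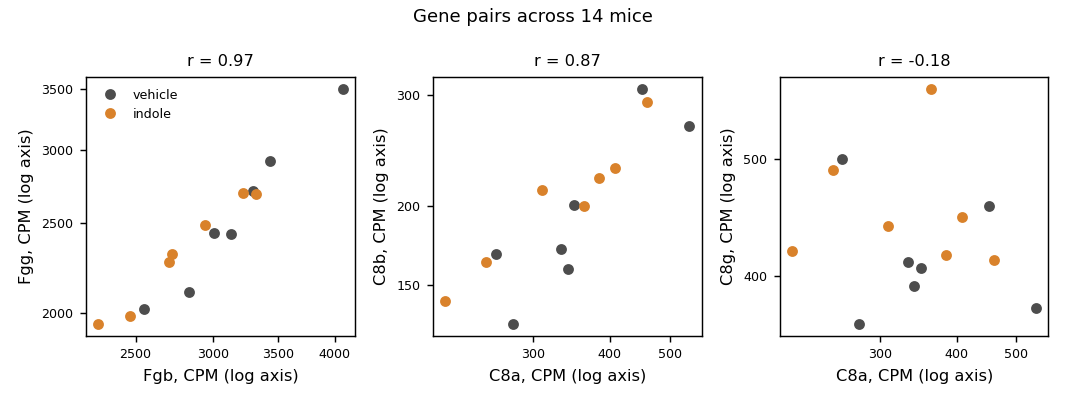
CPM of 3 gene pairs in the 14 mice on log axes, with vehicle in grey and indole in orange. *Fgg* rises with *Fgb* (*r*=0.97) and *C8b* with *C8a* (*r*=0.87), while *C8g* shows no such course with *C8a* (*r*=−0.18).

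Other genes of the same systems were taken from a list of 65, of which 45 had enough reads to be tested. Of these, 31 had a higher and 14 a lower mean with indole, with a median log2 fold change of 0.09, and 1 had an unadjusted *p* below 0.05, or 2.22% against 3.81% of all genes. This was *F8*, the cofactor of factor IX, which the liver makes in its sinusoidal endothelium. It ranged from 4.10 CPM through 5.30 to 6.64 with vehicle and from 5.07 through 8.07 to 8.77 with indole, and 6 of 7 indole mice lay above every vehicle mouse. The means were 5.36±0.85 and 7.62±1.31 CPM, a log2 fold change of 0.50 (SE 0.140, unadjusted *p*=0.00175, adjusted *p*=0.998 with edgeR, exact permutation *p*=0.00583), at 71 to 162 reads per mouse. Of 8 sinusoidal endothelium markers, 2 had an unadjusted edgeR *p* below 0.05, and 1 of these 2 was *F8* itself. All 8 markers, *F8* among them, had a higher mean with indole, with a median log2 fold change of 0.19. Their sum was 68.4 to 118 CPM with vehicle and 83.2 to 148 CPM with indole, and its part in the *F8* value was not tested.

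The most abundant gene per length of that list was *Pzp*, which encodes a broad protease inhibitor, at 4036±421 CPM with vehicle and 3848±542 with indole (log2 fold change −0.07, SE 0.094). The most abundant per length of its other groups were *Cpn2*, encoding a subunit of the carboxypeptidase that inactivates anaphylatoxins (log2 fold change −0.11, SE 0.098), and *Cd59a*, encoding a cell-surface inhibitor of the membrane pore (0.09, SE 0.069). The same held for *Mcfd2*, whose protein helps to export factors V and VIII (0.08, SE 0.085), and for *F2r*, encoding a thrombin receptor (0.19, SE 0.114). The 3 C1q genes, which macrophages express, were at 49.7 to 57.2 CPM in G8 and at most 26.1 CPM in the other indole mice, beside the macrophage markers of that mouse. *Vwf*, an endothelial gene whose protein carries factor VIII, was at 4.53±1.29 and 5.78±1.84 CPM (log2 fold change 0.35, SE 0.211). *F3*, encoding the tissue factor that starts clotting, was at 4.45±0.99 and 4.07±1.08 CPM. *C1s1* and *Fcnb* were listed at 0 in all 14 mice, and *Cfd* and *A2m* had 1 read each over all mice.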

How the data were processed

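Bulk RNA sequencing counts of the right liver lobe were analysed for 14 TALLYHO mice, 7 given vehicle and 7 given 20 mg/kg indole, grouped by the sample labels. The authors made strand-specific libraries from poly(A) RNA, ran HISAT2 against GRCm38, retained reads that mapped to 1 place, and deposited an unnormalised count per mouse for 55487 genes. The counting tool is not given in the sources used here. Reads of close copies and overlapping genes can therefore be lost or shared. Total counts were 15197498 to 21060376 per mouse, and no columns of counts were left out. In no group did 2 libraries differ by as little as sampling noise (lowest chi-square per degree of freedom 15.66).

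Counts were tested with edgeR 4.0.16 in R 4.3.3 (TMM, filterByExpr, robust quasi-likelihood fit and test, 12653 genes, Benjamini–Hochberg adjustment over all of them), a test chosen in place of the DESeq2 fit that the authors named, which was an alternative here. Unadjusted edgeR *p* values and 95% confidence intervals come from the same fit. CPM per mouse used the TMM factors, and 0.1 was added before log2 for correlations and exact tests over the 14 mice. Exact permutation tests were two-sided over all 3432 relabellings, or 252 for 5 against 5. Correlations used 100000 resamples, or all orders within a group of 7. CPM per kb used the gene length of the table, which equalled the joined exon length of GENCODE M21 for all 43 genes. Promoter windows of RefSeq on GRCm38.p6 were searched on both strands with Python 3.11.15. The scripts were tested on simulated counts.

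The 43 genes and all lists were chosen with earlier results of these data known. Values in full were given for the 6 genes with the largest absolute log2 fold change, the most abundant gene per length of each role, and genes that crossed an unadjusted *p* of 0.05 when 1 mouse was left out. Of the list of other pathway genes, genes past an unadjusted *p* of 0.05 and the gene at the highest level per length in each group were named. Genes named for a mouse that stood apart, for spread or for a neighbour, and *Vwf*, *F3* and C1q of the other list, were chosen after their values were seen. The values of 1 gene of that list are not reported here. The mice were separate animals. The alternatives were DESeq2 1.42.0, limma 3.58.1 voom with quality weights, RLE scaling, no filter on low counts, leaving out each mouse, and leaving out G8, G11 and G13 together. A covariate for the libraries G1 to G4, and values within and outside them, were added once the data were known.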

Additional observations from a re-analysis of the deposited data

Results flagged for a closer look

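In 6 of 86 comparisons (43 genes in each of 2 groups), 1 mouse lay so far from the others of its group that its gap to the nearest value, as a share of the group's whole range, passed Dixon's 95% limit for 7 samples. Chance gives about 1 in 20, or 4.3 of 86. The indole mouse G8 was the highest of its group for *C2*, with a gap of 0.748 of the range, for *C4b* with 0.729 and for *Serping1* with 0.712. *C2* was 60.8 CPM in G8 and at most 45.2 CPM in the other indole mice, *C4b* was 1411 and at most 850 CPM, and *Serping1* 1182 and at most 771 CPM. The same mouse had the highest sum of interferon gamma response genes and of macrophage markers, and the part of these in the values was not tested.

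The indole mouse G2 was the highest of its group for *F11*, at 88.0 CPM with a gap of 0.653, and the lowest for *Kng2*, at 215 CPM with a gap of 0.650. The vehicle mouse G13 was the lowest of its group for *F13b*, at 257 CPM with a gap of 0.735, against 288 to 299 CPM in the other 6.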

How the results depend on the processing

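No gene of the 43 reached an adjusted *p* below 0.05 with edgeR, DESeq2 or limma voom under any of the 20 alternatives run. At an unadjusted *p* below 0.05 there were 0 of 43 in the analysis as reported, 1 (*C3*) with G1 to G4 as a covariate, and 0 to 2 when each mouse was left out. *Fga* and *Fgb* passed without G1 and without G8, *Fga* without G4 and without G7, and *C8g* without G6. The median log2 fold change of the 43 genes stayed between −0.04 and 0.02, and 19 to 30 genes were lower in indole. The log2 fold change of *Vtn*, 0.02 as reported, changed sign without G1, G4, G5 or G8 and ranged from −0.031 to 0.068. Of the other pathway genes, 1 passed as reported (*F8*, which passed in all alternatives), 2 without G8, G11 and G13 together (*F8* and *Thbs1*), and 1 to 5 when each mouse was left out, the 5 being *Colec10*, *Fcna*, *F2r*, *F8* and *Vwf* without G12. Among all genes, 482 of 12653 had an unadjusted *p* below 0.05 as reported, 719 of 22535 with DESeq2 and 1336 of 22535 with no filter. With the covariate there were 631 of 12653. When each mouse was left out there were 386 of 12747 (without G4) to 627 of 12788 (without G6). RLE scaling changed no pair's *r* by more than 0.03. No paired analysis was possible because the groups share no replicate numbers. With 66 to 154 reads per mouse, *Cfb* had the largest counting error relative to its level. Each of the other 42 genes had at least 318 reads. How much of the spread of a gene was counting error was not computed.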
